A study of Mus musculus with 4 samples.

Results

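The primary granule genes of granulocyte monocyte progenitors were followed in RNA of LSK cells, the lineage-negative fraction of mouse bone marrow positive for Sca-1 and Kit, in which stem cells and multipotent progenitors are found. The set is a list of 8 genes, Elane, Mpo, Prtn3, Ctsg, Ms4a3, Nkg7, Cst7 and Plac8, matched by symbol in the deposited tables. They were chosen for their role, with earlier results of these data known. All 8 were found among 26286 genes of the count table, and all 8 were among the 14912 genes that passed the filter on low counts. Their Entrez identifiers are 50701, 17523, 19152, 13035, 170813, 72310, 13011 and 231507, in that order, and they lie on chromosomes 10, 11, 10, 14, 19, 7, 2 and 5. The series holds 4 libraries of C57BL/6 cells, 2 labelled with a deletion of Hhex, a homeobox transcription factor gene, and 2 labelled wild-type. The labels give no age, no means of deletion and no pooling of mice. They also do not say whether the libraries of a group come from different animals, so the spread between the wild-type libraries may be technical.

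Primary or azurophil granules are the first granules that form when a progenitor commits to the neutrophil and monocyte lines, at the promyelocyte stage. They are loaded with myeloperoxidase and with serine proteases that are made as inactive precursors, trimmed by cathepsin C and packed on proteoglycan. Their genes are switched on together by C/EBP, PU.1, Myb and Runx factors, and their RNA is already found in stem and progenitor fractions as an early mark of the granulocyte and monocyte path.

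Total counts lay between 27871827 and 29501591 per library. Levels are given as CPM, the counts of a gene scaled to its library's total after TMM correction. The library labelled Hhex-deleted replicate 1 stood apart in sex markers, with 2662 CPM of Xist against 1.89 to 2.66 in the others, and 0.34 CPM of the Y-linked gene Ddx3y against 124 to 138. By these markers the Hhex-deleted libraries differ in sex and are not repeats from 1 animal. Results are therefore also given without it. Hhex itself had 179 and 188 CPM in both deleted libraries and 127 and 115 CPM in wild-type. Its fitted log2 fold change was 0.60 (edgeR adjusted p = 0.0271; 0.0575 and 0.148 with wild-type replicate 1 or 2 left out), higher where the label says deleted. This does not check the deletion, since counts per gene can include exons outside a deleted part. Deleted therefore means labelled so throughout. Of the gate's own markers, Kit had 566 to 698 CPM over the 4 libraries and Ly6a, the gene of Sca-1, had 20.7 to 42.5 CPM. Of the lineage markers removed by the sort, Cd3e stayed at or below 0.27 CPM and Ly6g at or below 0.22 CPM.

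As a set the 8 genes took 1.87% and 2.3% of all counts in the wild-type libraries and 1.37% and 1.03% in libraries labelled Hhex-deleted replicates 1 and 2. Mpo alone made up most of these counts in every library, for example 305726 of 522027 in wild-type replicate 1 and 176263 of 301601 in Hhex-deleted replicate 2. Fitted log2 fold changes, Hhex-deleted over wild-type, were negative for all 8, with a median of -0.84 against -0.01 over all tested genes. By edgeR's quasi-likelihood test, adjusted over all 14912 genes at a threshold of 0.05, 3 of the 8 fell (Elane, Ms4a3 and Nkg7) and none rose. Over all tested genes 1.12% were called lower and 1.48% higher. DESeq2 called 6 of the 8 lower (3.33% of all genes), the fit with no filter on low counts 4 (1.4%), limma-voom 2 (0.53%), edgeR with the replicate number as a block 2 (0.872%) and limma on the deposited log2 RPKM values 0 (0.0474%). At an unadjusted p under 0.05 the number of the 8 was 7, all of them lower, both by edgeR (8.23% of all tested genes lower at that threshold) and by limma on the deposited values (8.22%). For 7 of the 8 both deleted libraries lay below both wild-type libraries, which was so for 23.7% of all tested genes. The 8 were chosen with earlier results of these data known, so these comparisons with all tested genes are a description. In bulk RNA, fewer cells that express a gene and less RNA per cell cannot be told apart.

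**Figure D1:**
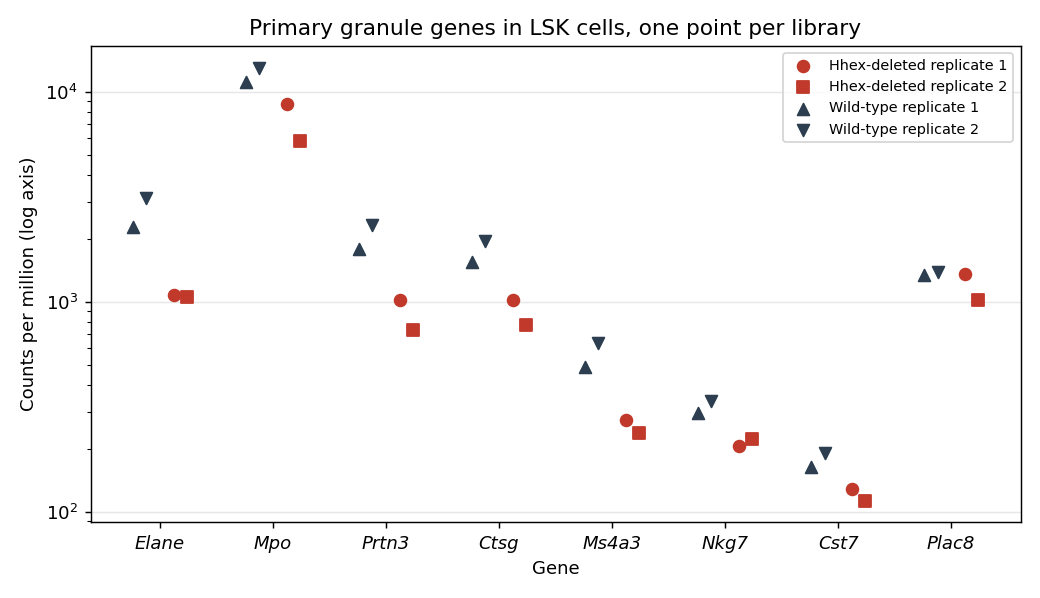
Level of each of the 8 genes in CPM (logarithmic vertical axis), one point per library, wild-type in dark triangles and Hhex-deleted in red. Both red points lie below both dark points for every gene but Plac8, from Mpo near the top (5846 to 13052 CPM) to Cst7 at the bottom (113 to 191 CPM).

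Among the serine proteases, Elane encodes neutrophil elastase, which cuts matrix and bacterial proteins. Elane stood at 2279 and 3121 CPM in wild-type and at 1075 and 1048 CPM in the libraries labelled Hhex-deleted. The deleted libraries were close to each other and well below the lower wild-type library. Its log2 fold change was -1.35 ± 0.16 (SE), which is 2.54-fold lower (edgeR adjusted p = 0.0226). Prtn3, next to Elane on chromosome 10, encodes proteinase 3, a related protease and a known target of autoantibodies in vasculitis. Prtn3 stood at 1780 and 2331 CPM in wild-type and at 1019 and 734 CPM in the deleted libraries. The groups did not overlap, but the deleted libraries differed by 1.39-fold, and its log2 fold change of -1.23 ± 0.22 (SE) did not pass the test (edgeR adjusted p = 0.0757). Ctsg encodes cathepsin G, a protease of chymotrypsin type. Ctsg stood at 1540 and 1953 CPM in wild-type and at 1021 and 778 CPM in the deleted libraries, with a log2 fold change of -0.96 ± 0.18 (SE), and edgeR gave an adjusted p of 0.0702. All deleted values of Ctsg were below its wild-type values. The call of Elane was lost without Hhex-deleted replicate 1 (edgeR adjusted p = 0.175) and without Hhex-deleted replicate 2 (0.25), with a log2 fold change of -1.37 and -1.32.

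Promoter sequence is shown for these 3 proteases, for Ms4a3, which also fell by over 2-fold in the fit, and for Plac8, the 1 gene whose groups overlapped. Plac8 has 2 RefSeq starts, and the 1st is shown. Each line gives the 120 bases just before the RefSeq start on GRCm38.p6 (the deposited counts used mm9), read 5′ to 3′ on the gene's strand. Capitals mark matches on either strand to the letters searched for 4 factors of granule genes: TTNCNNAA for C/EBP, GAGGAA for PU.1, TGTGGT for Runx and AACNG for Myb. Matches may overlap.
Elane, chr10:79886192-79886311, plus strand: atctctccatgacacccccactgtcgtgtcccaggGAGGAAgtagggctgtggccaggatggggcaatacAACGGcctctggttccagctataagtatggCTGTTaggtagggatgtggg
Prtn3, chr10:79879547-79879666, plus strand: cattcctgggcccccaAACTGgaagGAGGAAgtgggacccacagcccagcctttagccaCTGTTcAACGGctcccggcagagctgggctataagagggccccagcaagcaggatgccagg
Ctsg, chr14:56102575-56102694, minus strand: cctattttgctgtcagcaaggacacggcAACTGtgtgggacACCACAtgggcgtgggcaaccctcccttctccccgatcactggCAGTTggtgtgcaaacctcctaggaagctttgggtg
Ms4a3, chr19:11640852-11640971, minus strand: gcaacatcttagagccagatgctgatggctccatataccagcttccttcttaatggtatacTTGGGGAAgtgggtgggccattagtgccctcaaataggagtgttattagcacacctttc
Plac8, chr5:100572206-100572325, minus strand: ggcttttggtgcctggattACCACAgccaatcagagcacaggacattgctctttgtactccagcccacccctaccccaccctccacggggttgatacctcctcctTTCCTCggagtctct

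In Elane a PU.1 match began 85 bases before the start and a Myb match of the form AACGG 50 bases before it, and in Prtn3 the same letters began 95 and 55 bases before the start. Elane had a further Myb match at 20 bases, and Prtn3 had others at 104 and 61 bases. In the bases shown, Ctsg had a Runx match at 79 bases and Myb matches at 92 and 36 bases, with its PU.1 match farther out at 216 bases. The window of Ms4a3 held a C/EBP match at 59 bases, and that of Plac8 a PU.1 match at 15 and a Runx match at 101 bases. Over the full 250 bases before the start, Mpo had its PU.1 matches at 247 and 224 bases, outside the length shown for the others. All 8 genes have an entry, Plac8 with 2 starts. PU.1 letters were found in 5 of the 9 windows and in 23.3% of all 32851 windows of that length. Myb letters were found in 7 (74.2%), C/EBP letters in 4 (36.8%) and Runx letters in 4 (14%). Over the 13826 windows of tested genes the shares were 22.5%, 72.5%, 29.1% and 11.4%, in that order. The 4 windows with C/EBP letters belonged to 3 genes, since both Plac8 starts had a match. These matches are descriptions of letters and not measured binding.

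Mpo encodes myeloperoxidase, the haem enzyme that makes hypochlorous acid and gives these granules their histochemical stain. Mpo had the highest CPM of all genes in the wild-type groups' mean, with 11153 and 13052 CPM, and ranked 2nd in the deleted libraries, with 8748 and 5846 CPM. All deleted values were below all wild-type values, but the deleted libraries differed from each other by 1.5-fold. The log2 fold change was -0.73 ± 0.22 (SE) and did not pass the test (edgeR adjusted p = 0.222). Without Hhex-deleted replicate 1 it was -1.05 and passed (edgeR adjusted p = 0.0183), and without Hhex-deleted replicate 2 it was -0.46 (0.158).

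Ms4a3 encodes a four-span membrane protein whose expression marks committed granulocyte and monocyte progenitors. Ms4a3 stood at 489 and 636 CPM in wild-type and at 275 and 237 CPM in the deleted libraries. Both deleted values were well below the lower wild-type value. Its log2 fold change was -1.14 ± 0.15 (SE), which is 2.2-fold lower (edgeR adjusted p = 0.0253). The call was lost without Hhex-deleted replicate 1 (edgeR adjusted p = 0.073) and without Hhex-deleted replicate 2 (0.126).

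Nkg7 and Cst7 are also known from killer lymphocytes. Nkg7 encodes a membrane protein of cytotoxic granules and stood at 296 and 336 CPM in wild-type and at 207 and 223 CPM in the deleted libraries. Nkg7 was the 1 gene of the 8 that was lower in Hhex-deleted replicate 1 than in replicate 2. Its log2 fold change of -0.56 ± 0.09 (SE) passed the test (edgeR adjusted p = 0.0421), and its call was lost whichever library was left out (adjusted p = 0.0594 to 0.244). Cst7 encodes cystatin F, an inhibitor of the cathepsin that activates granule proteases, and stood at 164 and 191 CPM in wild-type and at 129 and 113 CPM in the deleted libraries. Its log2 fold change was nearly the same, -0.55 ± 0.11 (SE), and did not pass (edgeR adjusted p = 0.0636). It passed without Hhex-deleted replicate 1 (log2 fold change -0.65, edgeR adjusted p = 0.0481). The 13 listed genes of T and natural killer cells summed to 14.5 and 30.6 CPM in the deleted and to 18 and 18.5 CPM in the wild-type libraries, less than a single gene, Nkg7, in each library. Ctsw, a cathepsin gene of killer cells, was the largest part of these sums, with 6.1 and 15 CPM in the deleted and 8.97 and 7.81 CPM in the wild-type libraries. The chemokine gene Ccl5 had 2.31 to 4.38 CPM, and the killer cell genes Prf1, Gzma and Ncr1 stayed at or below 0.51, 0.83 and 0.96 CPM. Cd2, of the same list, had 1.06 and 1.43 CPM in the deleted and 0.29 and 0.35 CPM in the wild-type libraries. The part of killer lymphocytes in the levels of Nkg7 and Cst7 was not tested.

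Plac8 encodes a cysteine-rich protein found in many myeloid and lymphoid progenitors. Plac8 stood at 1342 and 1381 CPM in wild-type and at 1350 and 1024 CPM in the deleted libraries. One deleted library sat between the wild-type libraries and the other below them, so the groups overlapped. Its log2 fold change was -0.20 ± 0.14 (SE) and did not pass (edgeR adjusted p = 0.594). It ran from -0.41 without Hhex-deleted replicate 1, where it passed (edgeR adjusted p = 0.0445), to -0.01 without Hhex-deleted replicate 2 (0.993).

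**Figure D2:**
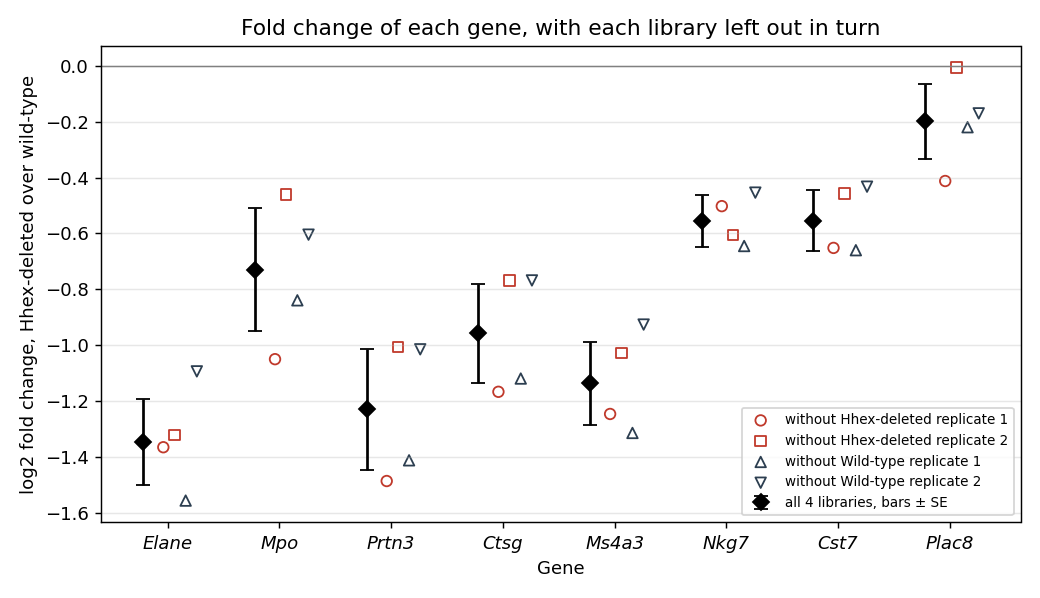
Log2 fold change, Hhex-deleted over wild-type, of each of the 8 genes: black diamonds with bars of ± SE use all 4 libraries, and open symbols leave out the library named in the key. All values lie below 0, with Elane lowest (-1.35) and Plac8 highest (-0.20) with all libraries. For every gene but Nkg7 the value without Hhex-deleted replicate 1 is the lower of the 2 red symbols, by little for Elane.

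The libraries within each group were also ordered alike across the genes. All 8 genes were lower in wild-type replicate 1 than in wild-type replicate 2, by ratios from 0.73 for Elane to 0.972 for Plac8. In the deleted libraries 7 of the 8 were higher in replicate 1 than in replicate 2, by ratios from 1.03 for Elane to 1.5 for Mpo, with Nkg7 at 0.926. Thus, for every gene but Nkg7, the wild-type library with the lower value was replicate 1 and the deleted library with the higher value was replicate 1. With Hhex-deleted replicate 1 left out, 3 of the 8 were called lower by edgeR (Mpo, Cst7 and Plac8, against 1.51% of all genes), none of them among the 3 called with all libraries. With Hhex-deleted replicate 2 left out, edgeR called 0 (0.86% of all genes), and 7 were lower at an unadjusted p under 0.05 (7.18% of all genes). Elane and Ms4a3 were the 2 called when either wild-type library was left out (0.926% of all genes for replicate 1 and 0.261% for replicate 2).

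Per kilobase of gene (RPKM computed from the counts), the order of levels in wild-type was Mpo (4753 ± 528, SD, n = 2), Elane (2935 ± 647), Prtn3 (2115 ± 401), Plac8 (1957 ± 39.6), Ctsg (1743 ± 292), Ms4a3 (556 ± 103), Nkg7 (388 ± 34.6) and Cst7 (180 ± 19.3). Prtn3 overlapped Plac8, and Plac8 overlapped Ctsg. In the deleted libraries Plac8 stood 2nd at 1705 ± 331 RPKM (SD, n = 2) behind Mpo at 2866 ± 806. Elane followed at 1154 ± 20.7, then Prtn3 at 901 ± 207 and Ctsg at 898 ± 171, which overlapped, and Nkg7 at 264 ± 14.3 overlapped Ms4a3 at 253 ± 26.2. Ratios within a library do not depend on scaling between libraries. The Elane level was 1.28 and 1.71 times the Plac8 level per kilobase in wild-type and 0.603 and 0.775 times in the deleted libraries. The Mpo level was 1.77 and 1.51 times that of Elane in wild-type and 2.94 and 2.02 times in the deleted libraries. Elane over Prtn3 was 1.35 and 1.41 in wild-type and 1.12 and 1.51 in the deleted libraries, so that ratio overlapped between groups while the other 2 ratios did not.

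At their loci the genes moved apart from some of their relatives. The 2 nearest tested genes on each side of every locus made 28 distinct neighbours, in RefSeq gene order, of which 2 rose, 1 fell and 25 did not pass the test. Next to Ms4a3 lies Ms4a2, which encodes the beta chain of the IgE receptor of mast cells and basophils. Ms4a2 had 7.59 and 7 CPM in wild-type and 50.3 and 44.9 CPM in the deleted libraries, a log2 fold change of 2.71 ± 0.12 (SE), and edgeR gave an adjusted p of 0.00183. Near Ctsg, in the cluster of granule proteases on chromosome 14, lies Mcpt8, a basophil protease gene. Mcpt8 had 35.2 and 37.8 CPM in wild-type and 129 and 126 CPM in the deleted libraries, a log2 fold change of 1.81 ± 0.08 (SE), and edgeR gave an adjusted p of 0.00183. The calls of Ms4a2 and Mcpt8 held whichever library was left out. Gzmb, the granzyme B gene of the same cluster, had 6.35 and 1.61 CPM in wild-type and 43.7 and 28.2 CPM in the deleted libraries, and its log2 fold change of 3.18 ± 0.81 (SE) did not pass (edgeR adjusted p = 0.237, or 0.0215 without wild-type replicate 1).

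Next to Mpo, its relative Lpo, the lactoperoxidase gene, stood at -0.71 ± 0.30 (SE) on the log2 scale from only 4 CPM in wild-type, and Bzrap1 on the other side at -0.70 ± 0.13 (SE). Neither passed (edgeR adjusted p = 0.339 and 0.0592), and Bzrap1 passed without Hhex-deleted replicate 1 (0.0103). Around Prtn3 and Elane, BC005764 stood at -0.42 and Med16 at -0.20. Around Nkg7, Siglecg stood at -0.58, Cldnd2 at -0.59, Etfb at -0.40 and the adjacent Lim2 at 0.22 ± 0.38 (SE; -0.049 without wild-type replicate 2), and none of these passed with all libraries. BC005764 and Etfb passed without Hhex-deleted replicate 1 (edgeR adjusted p = 0.0329 and 0.0379). Near Plac8, Hpse, which encodes heparanase, fell with a log2 fold change of -1.10 ± 0.14 (SE). Its edgeR adjusted p was 0.0226, and the call was lost without wild-type replicate 2 (0.0961). No label or header says whether reads of overlapping genes on opposite strands were kept apart.

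**Figure D3:**
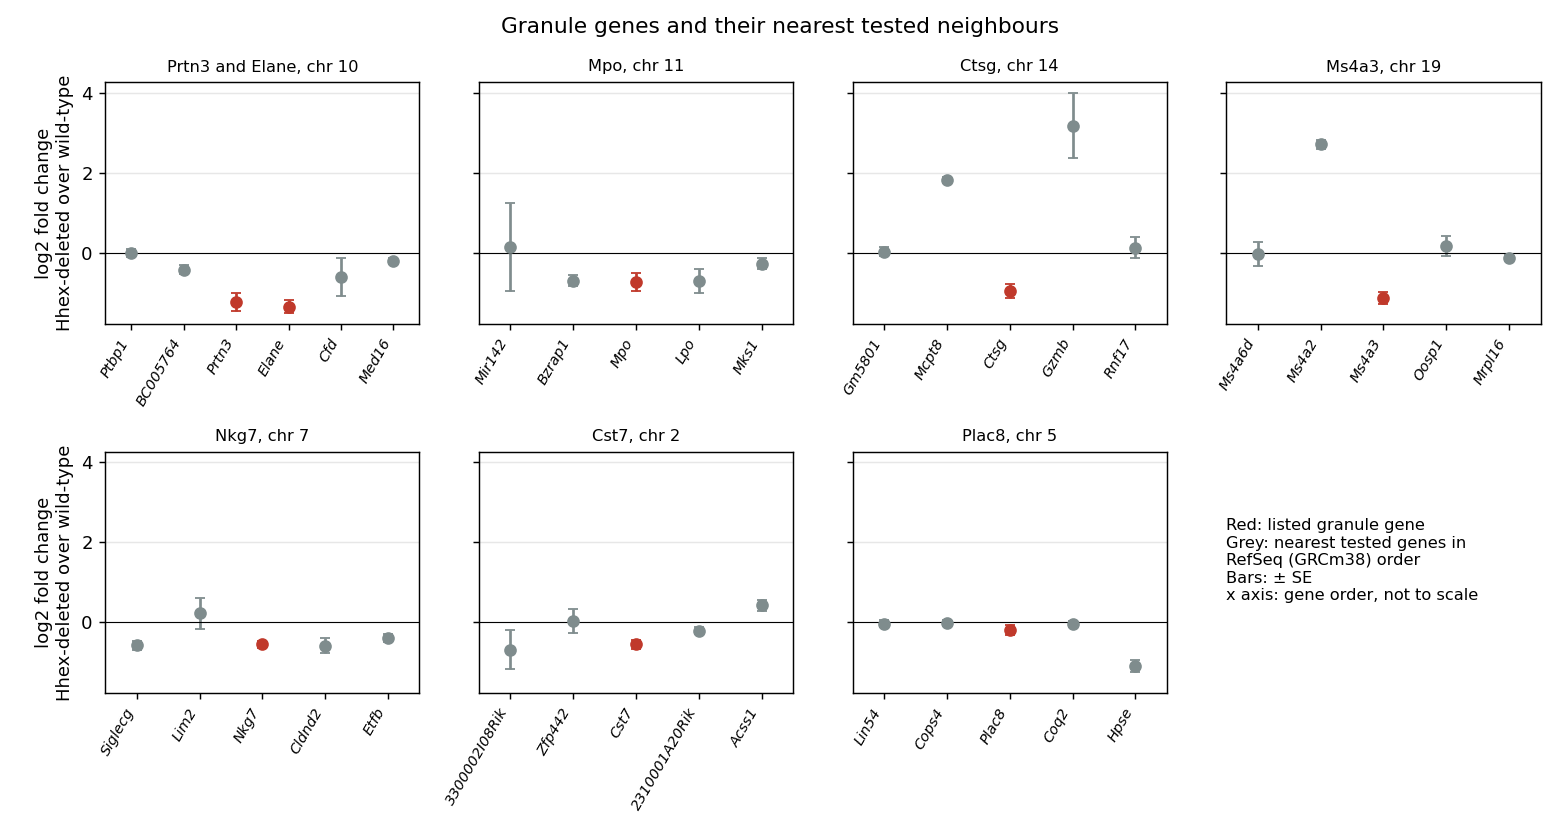
Log2 fold change (Hhex-deleted over wild-type, bars ± SE) of the granule genes in red and of their nearest tested neighbours in grey, in gene order and not to scale. Ms4a2 (2.71) and Mcpt8 (1.81) lie above 0 next to Ms4a3 (-1.14) and Ctsg (-0.96), while the neighbours of Prtn3, Elane and Mpo lie near or below 0.

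Of 13 listed genes for other contents and enzymes of these granules 11 were tested, 2 fell and none rose, with a median log2 fold change of -0.24. Prss57, a further serine protease of azurophil granules, fell with a log2 fold change of -1.06 ± 0.15 (SE), from 157 to 75.2 CPM in the group means, with an edgeR adjusted p of 0.0358. Hexa, a subunit of the lysosomal hexosaminidases, fell with a log2 fold change of -0.69 ± 0.11 (SE), and edgeR gave an adjusted p of 0.0358. Arsb, an arylsulfatase gene, stood at -0.61 (edgeR adjusted p = 0.0566, and 0.0345 without wild-type replicate 1) and Gaa, the acid glucosidase gene, at -0.29 (0.191). The call of Prss57 was lost without Hhex-deleted replicate 1 (edgeR adjusted p = 0.169) and replicate 2 (0.207), and that of Hexa without Hhex-deleted replicate 2 (0.056), wild-type replicate 1 (0.0658) and wild-type replicate 2 (0.148).

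Of 13 genes for processing, folding, inhibiting and sorting granule proteins, 0 passed edgeR's test, 0 at the same threshold by limma-voom and 1 by DESeq2, with a median of -0.08. At an unadjusted p under 0.05 by edgeR, 2 were lower and 0 higher. The nearest to the threshold by unadjusted p were G6pc3 (-0.38), a glucose phosphatase needed by neutrophils, Srgn (-0.24), the core protein of granule proteoglycan, Calr (-0.40), a chaperone of myeloperoxidase, and Serpinb1a (-0.17), an inhibitor of elastase. Without Hhex-deleted replicate 1, G6pc3 and Calr passed (edgeR adjusted p = 0.0377 and 0.0263). The count table gave Ctsc, the gene of cathepsin C, 57.3 to 62.7 CPM in all 4 libraries.

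Of 12 listed transcription factors, which include factors of granule genes and factors of other paths such as Gata2, Irf8 and Klf4, 1 fell and none rose, with a median of -0.57. With all libraries the log2 fold change was negative for 7 of the 12 and positive for 5. Cebpa, Myb, Runx1 and Cbfb were among the 5, and none of them passed. Myb had 896 to 918 CPM over the 4 libraries. Cebpa had 129 and 171 CPM in wild-type and 198 and 135 CPM in the deleted libraries. Runx1 had 153 and 132 CPM in wild-type and 171 and 149 CPM in the deleted libraries. Cebpb, a C/EBP factor of later and emergency granulopoiesis, fell with a log2 fold change of -0.84 ± 0.14 (SE), from 22.6 to 12.6 CPM in the group means, with an edgeR adjusted p of 0.0382. Irf8, a factor of the monocyte path, stood at -0.75 (edgeR adjusted p = 0.0642), Sfpi1, the gene of PU.1, at -0.51 (0.0653), and Gata2, a factor of stem cells, mast cells and basophils, at 0.76 (0.0727). The call of Cebpb was lost without Hhex-deleted replicate 2 (edgeR adjusted p = 0.084), wild-type replicate 1 (0.157) and wild-type replicate 2 (0.145). Irf8 and Sfpi1 passed without Hhex-deleted replicate 1 (edgeR adjusted p = 0.0165 and 0.0314). The count of lower factors was 3 without Hhex-deleted replicate 1 or wild-type replicate 1 and 0 without replicate 2 of either group.

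Of 9 myeloid cytokine receptor genes 3 fell and none rose, with a median of -0.52. Il6ra, a chain of the interleukin 6 receptor, fell with a log2 fold change of -1.20 ± 0.12 (SE), with an edgeR adjusted p of 0.0118, and its call held whichever library was left out. Csf2ra, a chain of the GM-CSF receptor, fell by 0.70 ± 0.08 (SE) on the log2 scale, and Csf3r, the G-CSF receptor gene, fell by 0.52 ± 0.09, where edgeR's adjusted p-values were 0.019 and 0.0459. Csf2rb, the shared beta chain, stood at -0.55 (0.31). The call of Csf2ra was lost without wild-type replicate 2 (edgeR adjusted p = 0.0987) and that of Csf3r whichever library was left out (0.0609 to 0.253). Leaving out wild-type replicate 1 gave 2 lower receptor genes, leaving out its replicate 2 gave 1, and 1 was higher without Hhex-deleted replicate 1.

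Of 20 other genes of granulocyte monocyte progenitors 7 fell and none rose, with a median of -0.89, near the -0.84 of the 8 granule genes. Gstm1 and Mgst1, which encode glutathione transferases, fell with log2 fold changes of -1.18 ± 0.14 and -0.85 ± 0.11 (SE, edgeR adjusted p = 0.018 and 0.0229). The surface protein genes Ly6c2, whose reads can be shared with its near copy Ly6c1, and Clec12a fell with -1.03 and -1.04 (edgeR adjusted p = 0.00865 and 0.0204). Only the call of Ly6c2, of these 4, held whichever library was left out. The calls of Gstm1 and Clec12a were lost without Hhex-deleted replicate 1 (edgeR adjusted p = 0.0719 and 0.0686) and without Hhex-deleted replicate 2 (0.0912 and 0.072). Mgst1 lost its call without Hhex-deleted replicate 2 (edgeR adjusted p = 0.0502), wild-type replicate 1 (0.0525) and wild-type replicate 2 (0.142). In this list 3 genes were lower without Hhex-deleted replicate 2.

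Markers of later and of other cells moved with the libraries in different ways. The 15 markers of mature neutrophils, 14 of them tested, summed to 654 and 1253 CPM in wild-type and to 227 and 634 CPM in libraries labelled Hhex-deleted replicates 1 and 2. S100a8 and S100a9 made up most of that sum in the other libraries but not in Hhex-deleted replicate 1. The secondary granule genes Camp, Ltf and Ngp stood at 1.44, 1.54 and 13.6 CPM in Hhex-deleted replicate 1 and at 29.6, 15.8 and 55.5 CPM in its replicate 2. In wild-type they stood at 15.5, 7.33 and 26.4 CPM in replicate 1 and at 55.6, 14.6 and 68.2 CPM in replicate 2. Hhex-deleted replicate 1 was lowest for all 3, and the other deleted library was above wild-type replicate 1, so the groups overlapped. The neutrophil sum was lowest in Hhex-deleted replicate 1, whereas the sum of the 8 granule genes was lowest in replicate 2, at 10003 against 13823 CPM. Mpo alone made up most of the latter sum, with 5846 CPM in replicate 2 against 8748 CPM in replicate 1. While 7 of the 8 genes were lower in replicate 2, Elane hardly differed (1048 against 1075 CPM) and Nkg7 was higher there (223 against 207 CPM). Of the neutrophil markers 0 fell by edgeR's test with all libraries, with 1 higher, Mmp9, a median of -0.81 and DESeq2 calling 2 lower; edgeR called 1 lower without wild-type replicate 1, and 2 were lower at an unadjusted p under 0.05. At an unadjusted p Itgam (-0.67) and Cxcr2 (-0.94) came next to Mmp9 (1.92), whose call was lost without wild-type replicate 1 (edgeR adjusted p = 0.107) and wild-type replicate 2 (0.0987). The part of mature neutrophils in the levels of the 8 genes was not tested.

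Most of the 13 mast cell, basophil and eosinophil markers went the other way. The sum of all 13 was 468 and 493 CPM in wild-type and 1518 and 1292 CPM in the deleted libraries. Of 12 tested genes 7 rose and none fell, with a median of 1.88. The log2 fold change was positive for 11 of them and negative for Hdc (-0.50, edgeR adjusted p = 0.438). Hdc had 119 and 149 CPM in wild-type and 114 and 75.7 CPM in the deleted libraries. The untested Tpsb2 had 0.22 and 0.18 CPM in wild-type and 0 in both deleted libraries. Cpa3 and Prss34, protease genes of mast cells and basophils, rose with log2 fold changes of 2.26 and 1.96 (edgeR adjusted p = 0.0021 for each). Among 17 tested relatives of the 8 genes by family, 2 rose, the Ms4a2 and Mcpt8 described above, and none fell, with a median of 0.27. Epx, the eosinophil peroxidase gene and a relative of Mpo, stood at 1.24 ± 0.29 (SE, edgeR adjusted p = 0.15) and passed without either Hhex-deleted library (0.0229 without replicate 1, 0.00323 without replicate 2). Of the remaining lists, 3 of 12 monocyte, macrophage and dendritic cell genes rose and 1 fell (median 0.02), 6 of 8 B lineage genes rose (median 3.02), 1 of 12 LSK genes rose (median 0.32), and none of 9 tested T and natural killer cell (median 0.33), 6 erythroid (0.45) or 6 megakaryocyte genes (0.01) passed edgeR's test. For these 3 last lists limma-voom also called 0, DESeq2 called 1 megakaryocyte gene, and edgeR gave an unadjusted p under 0.05 to 1 T and natural killer cell gene, 0 erythroid and 1 megakaryocyte gene. Leaving out Hhex-deleted replicate 2 gave 1 higher gene each in the erythroid and megakaryocyte lists. The LSK count was 5 without Hhex-deleted replicate 1 and 0 without either wild-type library. In the monocyte list the higher genes numbered 0 without wild-type replicate 2, and the lower ones 0 without either deleted library.

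**Figure D4:**
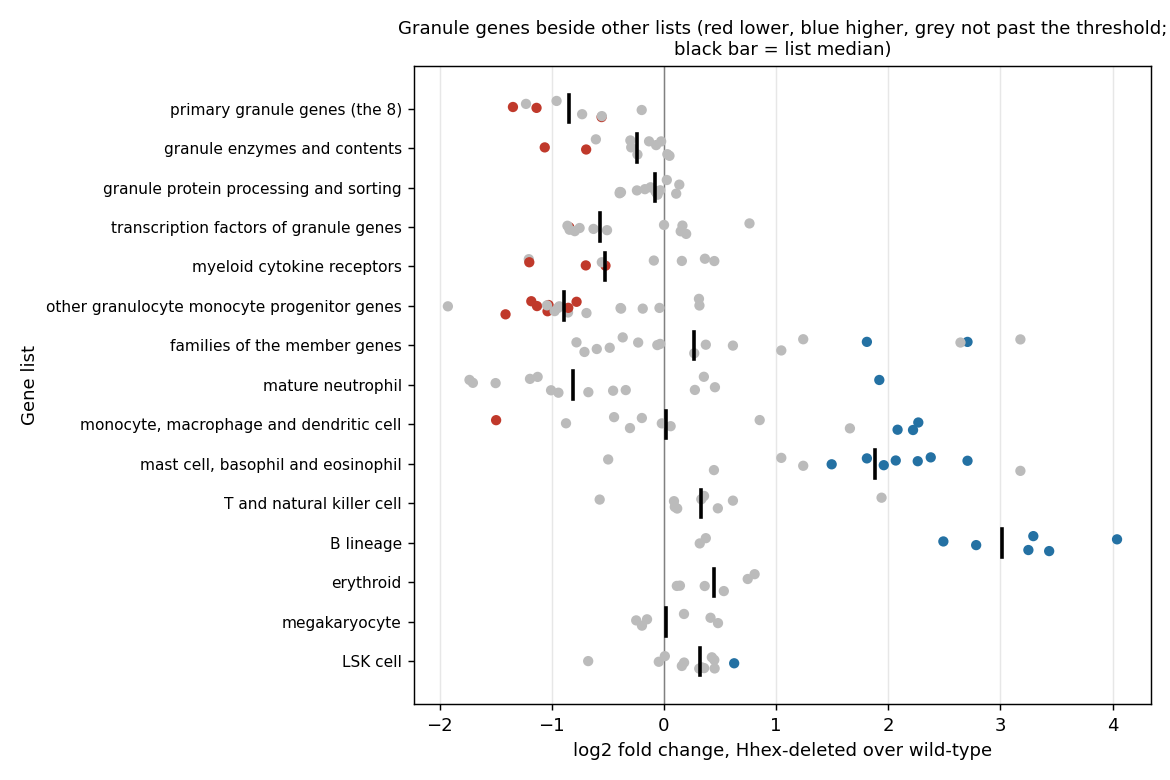
Log2 fold change (Hhex-deleted over wild-type) of each tested gene in each list, one point per gene, red where lower and blue where higher at the threshold, grey otherwise, with a black bar at the list median. The medians of the 8 granule genes (-0.84) and of the other progenitor genes (-0.89) lie to the left, and those of the mast cell, basophil and eosinophil list (1.88) and the B lineage list (3.02) to the right.

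Genes whose pattern over the 4 libraries was nearest to the mean of the 8 were sought among 10172 other genes with a mean of at least 10 CPM, by the root mean square distance between centred log2 CPM values. The 8 nearest were Tbc1d2, 9630033F20Rik, Sema6b, Lass6, Hk3, Tgm2, Fndc3b and Irak3, at distances of 0.0162 to 0.056, against 0.0768 for Ctsg, the nearest of the 8 granule genes to their own mean, and 0.328 for Plac8, the farthest. Hk3, which encodes a hexokinase of myeloid cells, was the most abundant of them, with 399 and 468 CPM in wild-type and 265 and 231 CPM in the deleted libraries. By edgeR 5 of the 8 fell: Hk3, Lass6, Tgm2, Fndc3b and Irak3, with log2 fold changes of -0.77 to -0.94. Since they were chosen for this pattern these values are a description, and all 5 lost their call without Hhex-deleted replicate 2 (adjusted p = 0.0562 to 0.144) and without wild-type replicate 2 (0.103 to 0.229).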

How the data were processed

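RNA of sorted LSK cells was made into libraries with a TruSeq RNA kit, per the labels' protocols. The authors deposited raw counts per Entrez gene for the 4 libraries, with a gene length, and log2 RPKM values per library for 12662 genes. Per the submitters' processing notes, Subread, featureCounts, limma and mm9 were used, with no versions or roles. No label or header gives the strand setting or the filters.

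The count analysis used edgeR 4.0.16 under R 4.3.3: filterByExpr by group (minimum count 10, minimum total 15), TMM factors, a robust quasi-likelihood fit on group alone over all 4 libraries, and Benjamini-Hochberg adjustment. The biological coefficient of variation was 16.3%. Standard errors of log2 fold changes were approximated from the F statistic, as the absolute fold change over root F. CPM and RPKM use TMM-scaled library totals. Every one of the 8 genes had at least 3406 counts in each library, so that the number of libraries and not depth limits precision. Alternatives were DESeq2 1.42.0, limma-voom (limma 3.58.1), RLE size factors, no filter on low counts, limma on the deposited log2 RPKM values, the replicate number as a block, and each library left out. The scripts were tested on simulated data.

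Symbols came from the deposited tables, then RefSeq (GRCm38.p6), which also gave gene order and promoter sequence. Of 182 list entries 181 were matched. Named genes are the 8 genes, Hhex, up to 4 genes of each list by unadjusted p, the 2 nearest tested neighbours on each side and the 8 genes nearest in pattern. Levels of Kit, Ly6a, Ctsc, Cebpa, Myb, Runx1, sex markers and single cell type markers, and the mention of Cbfb, were added after values were seen. The 8 genes and the lists were chosen with earlier results of these data known.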

Additional observations from a re-analysis of the deposited data

How the results depend on the processing

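All 8 granule genes kept a negative log2 fold change under all 10 alternatives, and of the genes given with a fold change in the text only Lim2, which did not pass, changed direction under those that gave it a value (0.22 with all libraries, and from -0.049 to 0.55 with a library left out, lowest without wild-type replicate 2). The number of the 8 called lower was 3 with all libraries, 6 with DESeq2, 4 with no filter on low counts, 2 with limma-voom and 0 with limma on the deposited log2 RPKM values. It ran from 0 to 3 with a library left out, and 0 were called higher throughout. Over all genes, 221 higher and 167 lower became 488 and 501 with DESeq2, 123 and 79 with limma-voom and 34 and 6 with limma on the deposited values. With no filter 272 were lower. With a library left out the counts ran from 84 to 366 higher and from 40 to 231 lower. Over the 152 tested genes of the other lists, 18 higher and 14 lower ran from 11 to 23 and from 6 to 18 with a library left out. DESeq2 called 31 of them lower, limma-voom 8 lower, and limma on the deposited values 8 higher and 0 lower. The causes of these differences between tools were not tested. The replicate numbers name libraries and are not stated to pair them. Same-numbered libraries deviated from their group means with a correlation of 0.326, and with the replicate number as a block 2 of the 8 genes were lower (Ms4a3 lost its call, adjusted p = 0.0585), with 185 genes higher and 130 lower and, in the lists, 19 and 10. A fit without one library leaves a group with 1 sample, which is assumed to vary like the other group.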

Other observations

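The deposited log2 RPKM values of Mpo were 12.11 in both wild-type libraries and 11.77 in both libraries labelled Hhex-deleted, equal within each group, although the counts differed between libraries of a group. In those tables Mpo held the 1st place in both wild-type libraries and the 2nd place in both deleted libraries. The equal values left Mpo no spread within a group in the limma fit to the deposited values. Why they were equal was not tested. The difference of Mpo was -0.34 on the log2 scale in the deposited values and -0.73 in the fit to counts, while Elane gave -1.41 and -1.35, Ms4a3 -1.12 and -1.14 and Nkg7 -0.56 in both.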
